A study of Mus musculus with 2 samples.

Results

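Pro-B and large pre-B cells are the bone marrow stages at which a B lineage cell assembles its immunoglobulin heavy chain gene and first tests the protein it encodes. They were chosen by measured counts, as barcodes with a count for at least 2 of 3 marker genes, Vpreb1, Igll1 and Dntt, and with no count of Ms4a1 (CD20, of later B cells) or Siglech (of plasmacytoid dendritic cells). The rule found 204 cells among 28382 kept cells, and all 204 came from the control library. None of 15579 kept cells of the diabetic library met it.

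The series holds 2 single-cell RNA libraries of bone marrow from the femurs and tibias of C57/BL6 mice, 1 per group. The control mice were given sodium citrate solution and had normal blood sugar. The T1D mice were given streptozotocin, a toxin of the insulin-producing beta cells, and had high blood sugar. The labels give neither the age nor the number of mice behind each library, and in both groups the cells were freed from bone by enzyme digestion, followed by red blood cell lysis. With 1 library per group no test between the groups is possible, so shares and levels carry exact 95% intervals that cover counting error only.

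As background, a pro-B cell opens its heavy chain locus, the recombinase encoded by Rag1 and Rag2 cuts and joins gene segments, and Dntt (terminal deoxynucleotidyl transferase) adds bases at the joints. A heavy chain that folds pairs with the surrogate light chain, made of the Vpreb and Igll1 proteins, and reaches the surface with Cd79a and Cd79b as the pre-B cell receptor. The cell then becomes a large pre-B cell, which divides several times with the recombinase shut down. It later leaves the cycle as a small pre-B cell, reopens Rag1 and Rag2 and assembles a light chain gene such as the one that ends in Igkc.

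The surrogate light chain genes chose the cells, so their promoters are shown first. Vpreb1 and Igll1 lie a short distance apart on chromosome 16, and in both windows of 250 bases before the gene's start the capitals mark E-boxes, the sequence class bound by E2A and related factors of early B cells. The sequences are those of RefSeq on GRCm38.p6, read 5′ to 3′ on the minus strand, from chr16:16869256-16869505 for Vpreb1 and chr16:16863986-16864235 for Igll1.
Vpreb1: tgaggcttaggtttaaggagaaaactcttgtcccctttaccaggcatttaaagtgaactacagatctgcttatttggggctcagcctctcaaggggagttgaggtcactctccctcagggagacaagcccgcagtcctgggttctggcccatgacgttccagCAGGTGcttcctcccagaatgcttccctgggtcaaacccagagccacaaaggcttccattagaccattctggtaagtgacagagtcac
Igll1: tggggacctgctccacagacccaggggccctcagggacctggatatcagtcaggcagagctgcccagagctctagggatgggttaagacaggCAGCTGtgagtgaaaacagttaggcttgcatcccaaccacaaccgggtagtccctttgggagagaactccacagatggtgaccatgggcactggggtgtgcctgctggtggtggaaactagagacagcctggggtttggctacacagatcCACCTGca

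The Vpreb1 window holds CAGGTG, beginning 88 bases before the start. The Igll1 window holds the same motif read from the other strand, CACCTG, beginning 8 bases before the start, and CAGCTG beginning 158 bases before it. Searched on both strands, CAGGTG stands in 17.2% and CAGCTG in 13% of 32851 mouse promoter windows of this length. Of 11 genes of the stage that were looked for, 10 had a window. CAGGTG was found for 5 of these 10, namely Vpreb1, Vpreb2, Igll1, Rag1 and Cd79a, and the other five, Vpreb3, Dntt, Rag2, Ebf1 and Pax5, had none in this window. Cd79b had no entry. A match is a description of letters, not a shown binding site.

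In the control library the 204 cells were 1.59% of 12803 kept cells (exact interval 1.38% to 1.83%). In the T1D library a count of 0 of 15579 allows a share of up to 0.0237%, the exact upper limit (3 cells of the total would be 0.0193%). The 3 marker genes were scarce in the whole T1D library. Vpreb1 had 5 counts and Igll1 had 7 counts in all T1D cells, against 1068 and 804 in all control cells. Dntt had 81 counts in 35 T1D cells, against 1364 in the control library. No T1D cell had counts for more than 1 of the 3 genes, whereas 224 control cells did before the exclusions.

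The T1D library was shallower, with a median of 2757 counts per kept cell against 3633 in control. When every control cell was thinned to 1000 counts, fewer than any kept T1D cell had, 98 of the control cells still met the rule. Genes of the same stages that the rule did not use differed in the same direction (plot of cells with a count by library). Rag1, a subunit of the recombinase, had 1 count in 1 T1D cell against 1615 counts in 769 control cells. Rag2, its partner, was found in 7 T1D cells against 169 control cells, and Vpreb3, a pre-B cell chaperone, in 96 against 2086. Cd79a, the receptor's signalling chain, was found in 264 T1D cells against 1931, and Pax5, the factor that holds B lineage identity, in 353 against 2038. Kit, the stem cell factor receptor, went the other way, in 1225 T1D cells against 872, as did Bst1, a surface enzyme of pro-B and myeloid cells, in 3141 against 2028. Later B cells with Ms4a1 and a Cd79 chain numbered 888 in control and 199 in T1D. A lower share of these cells and any difference in mice, handling or capture between the single libraries cannot be told apart.

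**Figure D1:**
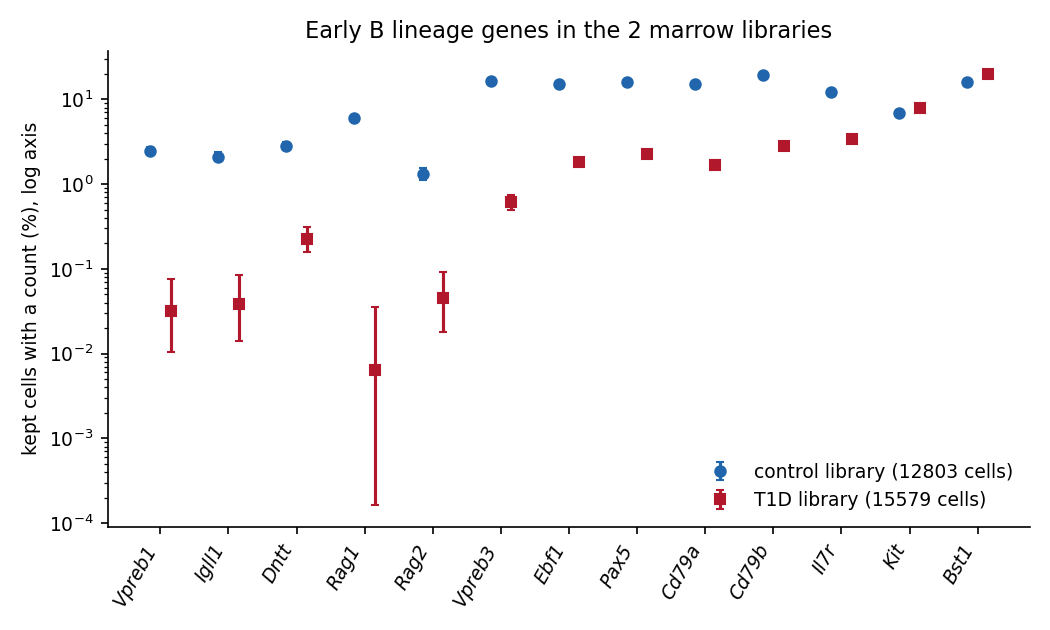
Percent of kept cells with a count (log axis) for 13 genes of early B cells, in the control library (blue circles) and the T1D library (red squares), with exact binomial intervals. Vpreb1, Igll1, Dntt, Rag1 and Rag2 lie far lower in T1D, while Kit and Bst1 lie higher.

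Cells just outside the rule had exactly 1 of the 3 markers and neither Ms4a1 nor Siglech. There were 205 of them in control, 90 with Vpreb1 alone, 57 with Igll1 alone and 58 with Dntt alone. The T1D library had 29, of which 21 had Dntt alone. In these 21 cells Cd79a, Pax5, Vpreb3 and Rag1 were each found in 0, Ebf1, Cd79b and Il7r in 1 each and Ighm in 7, while Flt3, a receptor of early lymphoid progenitors, was found in 13 (61.9%, 38.4% to 81.9%). In the 58 control cells with Dntt alone, Flt3 was found in 35 (60.3%, 46.6% to 73.0%), Cd79a in 9 and Rag1 in 15. Among the control cells with Vpreb1 alone, 53 of 90 had Vpreb3 and 45 had Ebf1.

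Within control, the rule's own genes were unevenly shared among the 204 cells. All 3 markers were found in 110 cells, Vpreb1 with Igll1 in 66, Vpreb1 with Dntt in 23 and Igll1 with Dntt in 5. Vpreb1 was thus found in 199 cells, Igll1 in 181 and Dntt in 138, with at most 16, 16 and 28 counts in a single cell. The 204 cells held 77.1% of all Vpreb1 counts of the library, 81.3% of Igll1 and 55.5% of Dntt. The exclusions removed 20 further cells, 12 for Ms4a1, 7 for Siglech and 1 for both. The 13 with Ms4a1 had Cd74, the invariant chain of antigen presentation, at 1710 CPM (counts scaled to the same total for each set of cells), and the 8 with Siglech had Bst2, a plasmacytoid dendritic cell gene, at 1072 CPM.

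The 204 cells were also deep. Their median was 4994 counts (1930 to 16322) and 1710 genes, against a median of 3310 counts in 397 other control cells with Rag1 and a Cd79 chain, no Ms4a1 and no Siglech. The 888 Ms4a1-positive B cells had a median of 3272. Of 253 barcode sequences that occur in both libraries, 3 belong to the 204 cells. Of the markers of the pro-B and large pre-B stages, Ebf1 was detected in 90.2% and Pax5 in 78.4% of the cells (67.6% and 52.0% after thinning to 1900 counts, against 2.49% and 2.04% of 5745 other control cells with at least 10% of their counts in a neutrophil list). Kit and Bst1, also on the marker list of these stages, were not concentrated in the 204 cells. These cells held 28 of the control library's 1466 Kit counts and 64 of its 2926 Bst1 counts, against 873 of 5127 for Ebf1. Among other cell types, neutrophil genes stood out: the 10 genes of that list summed to 17833 CPM in the 204 cells, with a range of 0.0107% to 16.1% of a cell's counts, and 43 cells had at least 2% of their counts there. The list summed to 48090 CPM in the other Rag1-positive cells and 49959 CPM in the Ms4a1-positive cells. The remaining lists summed to between 1.75 CPM (megakaryocytes) and 489 CPM (primary granule progenitors), with 3 of 4 megakaryocyte genes (Pf4 among them), 4 of 8 plasmacytoid dendritic cell genes, 2 of 6 NK cell genes and 1 of 8 T cell genes (Cd3e) at 0. No doublet caller was run here, and 45 cells with at least 2% of counts in another type's list were left out as an alternative chosen after seeing the data. This left 159.

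In the comparisons that follow, counts were summed over each set of cells and given as CPM. A gene is called higher or lower where the sums differ at least 2-fold on the log2(CPM + 5) scale, the higher set has at least 50 CPM and the interval of the ratio excludes 1. The cells of 1 library are not replicates, so no call carries a p-value. Against the other Rag1-positive cells, 420 of 3311 tested genes (12.7%) were higher in the 204 cells and 251 (7.58%) were lower. Against the Ms4a1-positive B cells, 528 of 3413 (15.5%) were higher and 383 (11.2%) were lower. TMM or DESeq2 scaling shifted all log2 ratios by -0.18 or -0.23 in the first and by -0.24 or -0.25 in the second. The splits then became 242 higher and 350 lower, or 212 and 384, in the first, and 301 and 521, or 294 and 524, in the second. Median log2 ratios over all tested genes were 0.25 and 0.26.

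Vpreb3 and Ighm, receptor genes that no rule used, were within the size rule of the other Rag1-positive cells. Among 6 tested genes of the surrogate light chain and pre-B cell receptor list 2 were higher, beside 12.7% of all tested genes. These were Vpreb1 and Igll1, and both chose the cells. Vpreb1 stood at 722 CPM against 22.2. Igll1 stood at 574 CPM against 0 counts, at least 252-fold higher by the exact interval (310-fold against 3 counts over the set). Vpreb3 was at 1063 against 942 CPM (log2 ratio 0.17), and 78.4% of the 204 cells had a count of it after thinning to 1900 counts (95.1% unthinned). Ighm, the heavy chain constant region, was at 2002 against 3083 CPM (-0.62). Both comparison sets, unlike the 204 cells, had to have a count of Cd79a or Cd79b, so the Cd79b level of 279 against 545 CPM is a description only. Vpreb2, at 34.2 CPM, is a near copy of Vpreb1, and how reads were divided between them is uncertain.

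Vpreb3 was higher than in the Ms4a1-positive B cells, at 1063 against 323 CPM (3.30-fold, 3.04 to 3.57). Cd79b stood at 705 CPM there, in part by the choice of the set. Igkc, the kappa light chain constant gene, was at 76.3 CPM in the 204 cells and at 2242 and 3502 CPM in the other sets. After thinning, 10.3% of the 204 cells had an Igkc count (6.49% to 15.3%; 19.1% unthinned), and 9.30% of the 5745 neutrophil-rich cells did (13.9% unthinned, median depth 3252 counts). Without Dntt the thinned share was 15.2% (7.51% to 26.1%) and with Dntt 7.97% (4.05% to 13.8%), and all of these intervals take in the share of the neutrophil-rich cells. A single cell of the Rag1-positive set held 2571 of its 3638 Igkc counts. Variable segments of the kappa and lambda genes were few as well, those of the heavy chain less so. Heavy chain V segments had 57 counts in 40 of the 204 cells (50 CPM, 37.9 to 64.8). The other sets stood at 72.7 CPM (60.2 to 87.1) and 137 CPM, and the neutrophil-rich cells at 20.2 CPM (18.4 to 22.2). Unthinned, 19.6% of the 204 cells had such a count. The share was 19.1% and 33.7% in the other sets and 6.58% in the neutrophil-rich cells. Kappa V segments had 15 counts in 10 cells (13.2 CPM), against 87.5 and 199 CPM and 9.14 CPM in the neutrophil-rich cells, and lambda V segments had 0.

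Recombination genes were higher throughout beside Ms4a1-positive cells, and in part beside the other Rag1-positive cells. In the first comparison 3 of 6 tested genes were higher, beside 12.7% of all tested genes. They were Dntt (used by the rule), Rag2 and Hmgb1. Rag2 was at 73.7 against 30.8 CPM (2.39-fold, 1.67 to 3.47; log2 ratio 1.14, but 0.97 under TMM and 0.92 under DESeq2 scaling, no longer past the size rule), and Hmgb1, a DNA-bending cofactor of the recombinase, at 1858 against 773 CPM. Rag1 chose the other set, so its 277 against 508 CPM is a description only. In the second comparison 6 of 6 were higher, Rag1 and Dntt among them because the Ms4a1-positive set was chosen to lack both. Of all genes tested there, 15.5% were higher. Rag2 was 34.1-fold higher (16.5 to 81.6), and Xrcc6 (Ku70), which holds broken DNA ends, was at 162 against 27.3 CPM. Lig4, the end-joining ligase, was at 54.4 against 17.0 CPM, but was under the 50 CPM minimum with either scaling. The other joining genes, Prkdc, Xrcc5, Dclre1c, Xrcc4, Nhej1 and Atm, were under the 50 CPM minimum in the 204 cells, between 6.14 and 47.4 CPM.

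**Figure D2:**
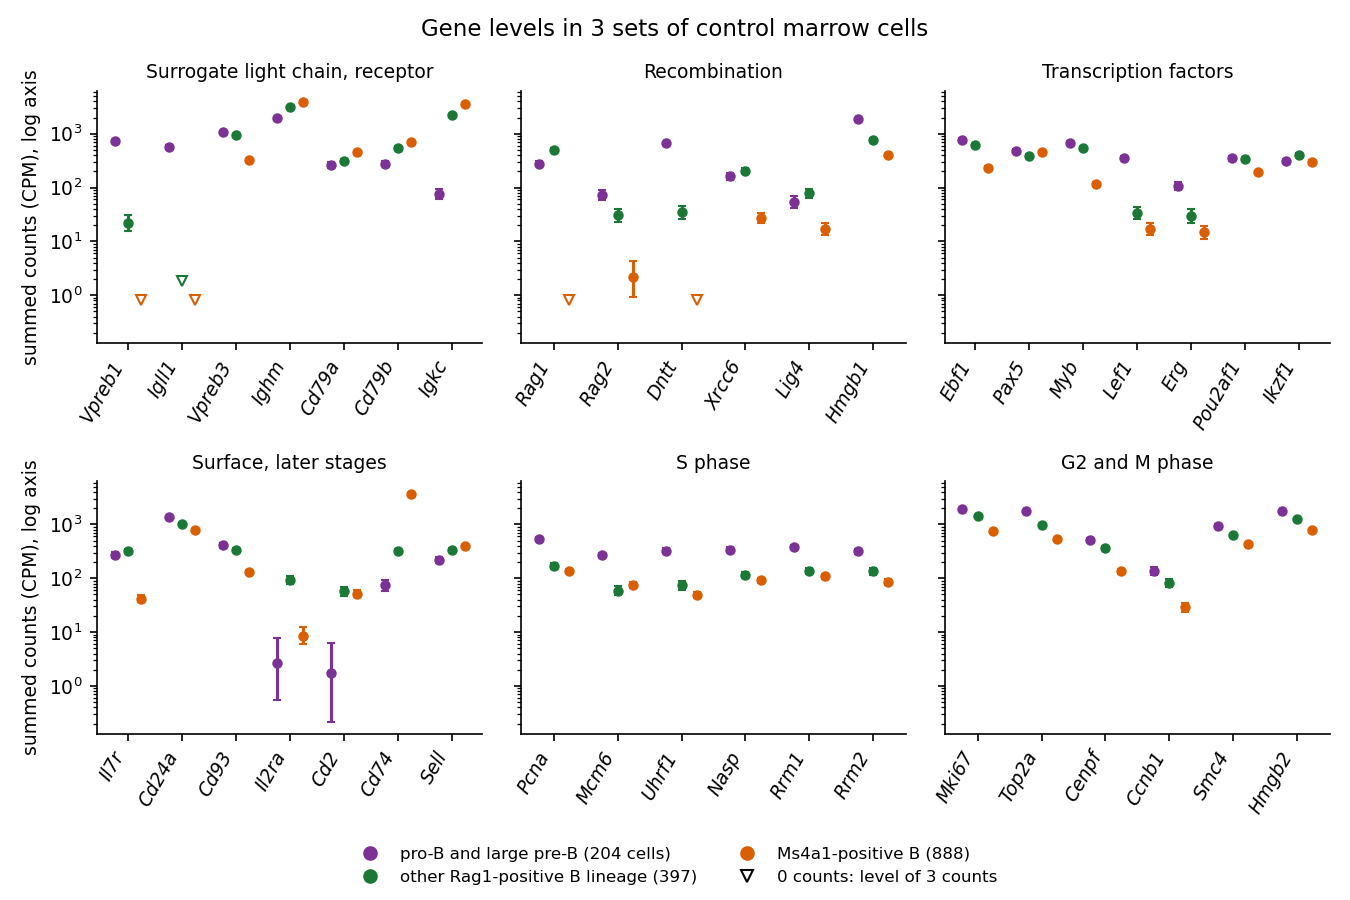
Summed counts in CPM (log axis, exact Poisson intervals) of genes in 6 roles, in the 204 pro-B and large pre-B cells (purple), 397 other Rag1-positive cells (green) and 888 Ms4a1-positive B cells (orange); open triangles mark 0 counts, drawn at the level of 3 counts. The S phase genes lie highest in purple, while Igkc, Il2ra, Cd2 and Cd74 lie lowest there.

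Transcription factors differed in both directions. Of 24 tested, 5 were higher and 6 lower than in the other Rag1-positive cells, beside 12.7% and 7.58% of all tested genes. Lef1, a Wnt-pathway factor of dividing early B cells, was at 354 against 33.9 CPM (10.5-fold, 7.87 to 14.1), and 47.5% of the 204 cells had a count after thinning, against 5.04% and 3.94% of the other sets. Erg, a factor of progenitor cells, was at 108 against 30.2 CPM. The same 2 genes were higher than in the Ms4a1-positive cells, where they stood at 17.3 and 14.8 CPM. Spib, a factor of later B and plasmacytoid dendritic cells, was lower in the 204 cells, at 50.9 against 227 and 209 CPM. Ebf1 and Myb, which drive early B cell development, were close to the other Rag1-positive cells (766 against 613 and 674 against 537 CPM) but higher than in the Ms4a1-positive cells, at 234 and 117 CPM. Pax5 was within the size rule in both comparisons, at 468 against 381 and 456 CPM.

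Of the early surface and cytokine receptors, 0 of 12 tested were higher than in the other Rag1-positive cells and 4 were lower (5 with either scaling). Of all tested genes 12.7% were higher and 7.58% lower. Il2ra (CD25, a marker of pre-B cells) was at 2.63 against 93.0 CPM (3 counts, 35.4-fold lower, 11.9 to 173). Cd2 was at 1.75 against 57.3 CPM (2 counts, 32.7-fold lower, 8.79 to 274). Ly6d, a surface protein of B-committed cells, was at 77.2 against 388 CPM, and Cd44, an adhesion receptor, at 131 against 283 CPM. Il7r, the receptor for the cytokine IL-7 that early B cells need, was at 271 against 319 CPM, and 6.48-fold higher than in the Ms4a1-positive cells (5.32 to 7.91). Cd93, an early B cell glycoprotein, was 3.14-fold higher there. Of 11 genes of this list tested against the Ms4a1-positive cells, 2 were higher and 4 lower. Of all genes tested in that comparison, 15.5% were higher and 11.2% lower. Progenitor receptors were low: Kit was at 24.6, Flt3 at 25.4 and Cd34 at 4.39 CPM in the 204 cells.

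Among signalling genes of the receptor, Blnk, the adaptor downstream of Syk, was at 311 against 195 CPM in the other Rag1-positive cells and 3.21-fold higher than in the Ms4a1-positive cells (2.77 to 3.73). Syk, the kinase itself, was lower than in the other Rag1-positive cells, at 198 against 533 CPM, as were Cd72 and Dok3. Of 17 tested genes of this list 0 were higher and 3 lower, beside 12.7% and 7.58% of all tested genes. Against the Ms4a1-positive cells 2 of 18 were higher and 5 lower, beside 15.5% and 11.2% of all tested genes. Bank1, a B cell scaffold protein, was at 7.02 against 188 CPM and Cd22, an inhibitory receptor, at 43.0 against 201 CPM. Genes of later B cells were lower as a group, 8 of 13 and 20 of 23 in the 2 comparisons, with none higher. Of all tested genes 7.58% and 11.2% were lower. Cd74 was at 73.7 CPM against 327 and 3671, and its share of cells, 6.86% after thinning, was near the 6.74% of neutrophil-rich cells. Fcer2a and Ciita had 0 counts. With 3 counts over the set put in place of 0, their levels in the Ms4a1-positive cells were 33.6-fold and 19.3-fold higher.

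Genes of DNA replication were higher in the 204 cells than in the other Rag1-positive cells almost throughout, while those of mitosis were mostly within the size rule. The other set had to have a Rag1 count, the 204 cells did not, and among the 204 Rag1 was lower in cycling cells. The part of this choice in the differences was not tested. Of 23 S phase genes, 22 were higher, beside 12.7% of all tested genes. The list summed to 5484 against 1844 CPM (2.97-fold, 2.85 to 3.11). With TMM scaling 18 of 22 were higher and with DESeq2 scaling 16 of 22. Pcna, the polymerase clamp, was at 539 against 169 CPM, Uhrf1, which copies DNA methylation, at 326 against 74.6 CPM, and Mcm6, a helicase subunit, at 268 against 59.1 CPM. Of 38 G2 and M phase genes, 3 were higher (Aurkb, Bub1 and Ttk), beside 12.7% of all tested genes. The G2 and M list summed to 12848 against 8768 CPM (1.47-fold, 1.43 to 1.5). None of the 3 passed under either scaling. Mki67 was at 1926 against 1426 CPM and Top2a at 1744 against 961. Against the Ms4a1-positive cells 23 of 23 S phase and 35 of 38 G2 and M phase genes were higher, beside 15.5% of all tested genes. With the scalings 19 of 21 and 24 to 25 of 37 were higher. Of the D cyclins and their partners, Cdk6 was at 431 against 82.6 CPM and Ccnd2 at 201 against 43.1, while the antiproliferative Btg1 and Btg2 were lower, at 241 against 652 and 360 against 790 CPM.

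In the growth list 6 of 13 tested genes were higher than in the other Rag1-positive cells and none lower, beside 12.7% and 7.58% of all tested genes. With either scaling 5 were higher and 1 lower (Aldoa, of glycolysis). The nucleolar proteins Npm1 and Ncl were at 2966 against 989 and 2165 against 674 CPM, Fbl at 148 against 38.8 CPM, and Ldha, of glycolysis, at 380 against 176 CPM (log2 ratio 1.09, but 0.91 under TMM and 0.86 under DESeq2 scaling). Among single genes other than the markers and Lef1, large ratios belonged to Arpp21, an RNA-binding protein, at 96.5 against 2.46 CPM, Frmd6 at 89.5 against 4.93, Mmrn1 at 53.5 against 1.85, Bfsp2 at 127 against 10.5 and Nrgn, a calmodulin-binding protein, at 125 against 11.7. Prss34, a basophil protease of the basophil and mast cell list, had 72 of its 73 counts in a single cell. Against the Ms4a1-positive cells, Cplx2 was at 252 against 9.99 CPM, Gfra2 at 76.3 against 0.540 and Adgrg1, which is in the list of stem and multipotent progenitor genes, at 216 against 12.1. On the lower side, Igha and Jchain rested on 1 cell of the Rag1-positive set (1307 of 1369 and 420 of 445 counts), while Cd38, an ectoenzyme, was at 14.9 against 115 CPM and Adam19 at 14.9 against 110.

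How many of the 204 cells were in cycle was read from the share of a cell's counts in the S and G2 and M lists together. The median was 1.64% (0 to 4.21%), against 0.211% in the other Rag1-positive and 0.173% in the Ms4a1-positive cells. With a limit at the 95th percentile of the Ms4a1-positive cells, 2.11%, there were 75 cells above it (36.8%, 30.1% to 43.8%), and 27 cells lay within 10% of the limit. At a limit of 1% there were 135 (66.2%, 59.2% to 72.6%), against 30.7% and 14.5% of the other sets. Below 1% there were 59 cells at or under 0.5% and 10 between 0.5% and 1%, so few cells lay near that limit. With Dntt, 43 of 138 cells (31.2%, 23.6% to 39.6%) were over 2.11% and 79 over 1% (57.2%). Without Dntt, 32 of 66 (48.5%, 36.0% to 61.1%) were over 2.11% and 56 over 1% (84.8%, 73.9% to 92.5%). With cells thinned to 1900 counts after they were chosen, 34.3% of the 204 cells were over 2.11% and 65.7% over 1%. The other Rag1-positive cells then had 17.1% and 31.0%. Unthinned, 25.4% of the 205 control cells with exactly 1 marker were over 2.11% and 56.6% over 1%. These shares were 28.9% and 61.1% with Vpreb1 alone, 33.3% and 66.7% with Igll1 alone, and 12.1% and 39.7% with Dntt alone. Neither these cells nor the 204 had to have a Rag1 count, unlike the other Rag1-positive set.

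**Figure D3:**
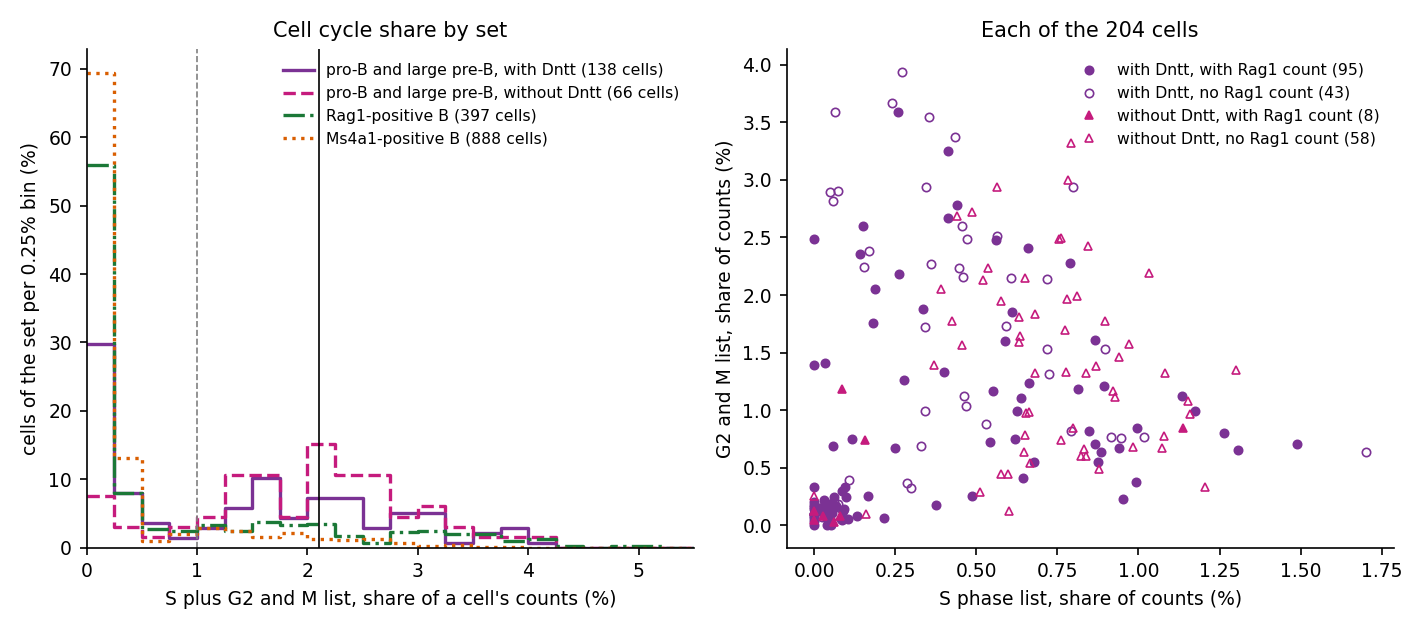
Left, percent of cells (y) in each 0.25% step of the share of counts in the S and G2 and M lists (x, percent), for cells with Dntt (138), without Dntt (66), other Rag1-positive (397) and Ms4a1-positive (888) cells, with vertical lines at 1% and 2.11%. Right, S share against G2 and M share (percent of counts) of each of the 204 cells by whether Dntt and Rag1 were counted; cells with neither marker (58) lie mostly away from the origin.

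Dntt divided the 204 cells into 138 with a count and 66 without. Dntt is a marker of the rule, and a cell without it had to have both Vpreb1 and Igll1, so the levels of these 3 genes between the subsets follow from the choice. Cells without Dntt were deeper, with a median of 6539 counts against 4590. Among 1731 genes tested at a minimum of 100 CPM, 70 (4.04%) were higher with Dntt and 92 (5.31%) lower, and the median log2 ratio was -0.21. TMM and DESeq2 scaling shifted the ratios by 0.11 and 0.08, giving 115 and 58, or 102 and 70. The neutrophil list stood at 21490 CPM with Dntt and 12224 without, primary granule genes at 648 and 247, plasmacytoid dendritic cell genes at 303 and 124, monocyte genes at 181 and 77.8, erythroid genes at 417 and 149, and stem and multipotent progenitor genes at 378 and 84.4, most of them Adgrg1. Basophil and mast cell genes stood at 249 and 4.44 CPM, and of their genes Prss34 had 72 of its 73 counts in 1 cell. The part of these lists in the differences was not tested beyond leaving out the cells named above.

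The recombinase followed Dntt. Rag1 was at 412 CPM with Dntt and 71.1 without (5.79-fold, 4.01 to 8.62), and Rag2 at 113 against 13.3 CPM (8.48-fold, 3.72 to 23.8). After thinning to 1900 counts, Rag1 was found in 50% (41.4% to 58.6%) and 10.6% (4.37% to 20.6%) of the cells. Also higher with Dntt were Erg, at 171 against 11.1 CPM, and Cdkn1a, the cell cycle inhibitor p21, at 130 against 26.7. The Arpp21, Gimap6 and Frmd6 levels were 148, 138 and 136 CPM with Dntt and 17.8 CPM each without. Blnk was at 410 against 160 CPM. Foxo1, a factor known to act on the Rag genes, was at 249 against 66.7 CPM, and Tcf4 (E2-2) at 246 against 80.0; these 2 genes were picked after their values were seen. Prss34 and Mcpt8, also on this side, rested on 1 cell.

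Among the 92 genes lower with Dntt were Nrgn, Cd22, Cd24a, Ccnd2 and 6 replication genes. Nrgn was at 300 CPM without Dntt against 10.1 with it (29.6-fold, 14.0 to 75), and in 30.3% against 2.90% of thinned cells. Cd22 was at 100 against 5.80 CPM. Also among the largest ratios were Myl4, at 164 against 15.9 CPM, Mrpl52, at 147 against 26.1, and Wapl, at 231 against 44.9. Cd24a (heat-stable antigen) was at 2184 against 852 CPM, Ccnd2, cyclin D2, at 322 against 122. Of the growth list 3 of 11 tested were lower with Dntt (Npm1, Ldha and Fbl), 0 of 11 with TMM and 2 of 11 with DESeq2 scaling, with Npm1 at 4398 against 2033 CPM. Of 20 tested S phase genes 6 were higher without Dntt and none lower (4 with TMM and 5 with DESeq2 scaling), with Mcm5 at 229 against 76.8 CPM and Nasp, a histone chaperone, at 547 against 207. The G2 and M list had 0 of 28 past the size rule. Of all 1731 tested genes 5.31% were lower with Dntt and 4.04% higher. Bach2, a repressor of plasma cell fate, was at 413 against 168 CPM and Irf4, a factor of pre-B cell receptor signalling, at 240 against 106, both picked after their values were seen. The Irf4 log2 ratio, -1.15, was -0.84 without the cells rich in other types' genes, which is no longer past the size rule. Ighm was at 2442 against 1714 CPM (-0.51). Kappa V segments had 13 counts in 8 of the 66 cells (28.9 CPM, 15.4 to 49.4) and 2 counts in the 138 (2.90 CPM, 0.351 to 10.5). The neutrophil-rich cells stood at 9.14 CPM (7.92 to 10.5), below the interval of the cells without Dntt and inside that of the cells with it.

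Rag1 was lowest in cycling cells without Dntt. At the 2.11% limit Rag1 was at 561 CPM in Dntt cells under the limit (76 of 95 cells with a count), 160 CPM in Dntt cells over it (19 of 43), 158 CPM in cells without Dntt under it (8 of 34) and 0 counts in 32 cells without Dntt over it. Without the cells rich in other types' genes, these levels were 691, 157, 85.6 and 0 CPM. Rag2, among cells with Dntt, was at 140 CPM over the limit (98.1 to 194) and 97.0 under it (69.9 to 131), and these intervals overlap.

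At the 1% limit Rag1 was at 748 CPM in Dntt cells under it (51 of 59 cells), 252 CPM in Dntt cells over it (44 of 79) and 4.99 CPM in cells without Dntt over it, from 2 counts in 56 cells. The other 10 cells without Dntt held 30 of that subset's 32 Rag1 counts, in 6 cells. Nrgn, by contrast, had 135 counts in 44 of the 56 cells (324 CPM) and 0 in the 10. Of these 10 cells, 6 had at least 2% of their counts in another type's list, and the 4 that did not held 11 Rag1 counts.

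**Figure D4:**
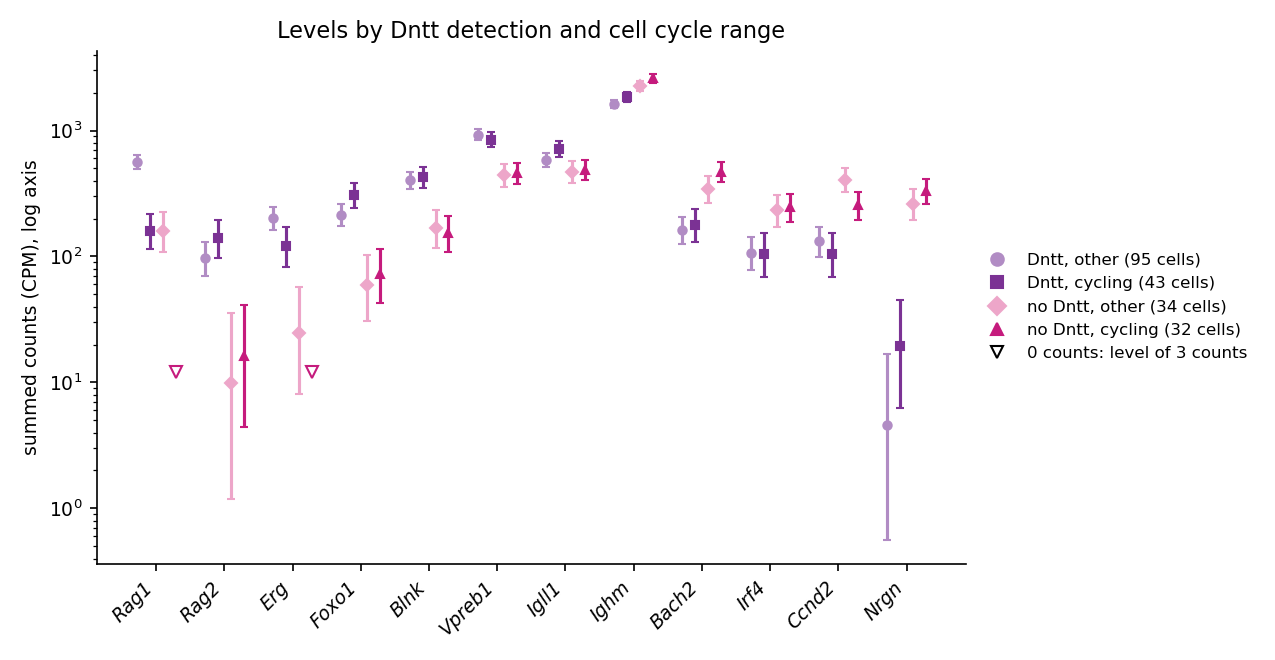
Summed counts in CPM (log axis, exact Poisson intervals) of 12 genes in 4 subsets of the 204 cells: with Dntt under (95) and over (43) the 2.11% cycle limit, and without Dntt under (34) and over (32) it. Rag1 lies highest with Dntt under the limit (561 CPM) and at 0 counts without Dntt over it, and Nrgn lies higher in both subsets without Dntt.

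Between cycling and other cells as a whole, 125 of 1717 genes (7.28%) were higher and 118 (6.87%) lower at the 100 CPM minimum, and the G2 and M genes among them chose the cells. Rag1 was at 81.2 against 433 CPM (5.33-fold lower, 3.83 to 7.59). Vpreb1, at 656 against 775 CPM, and Igll1, at 606 against 548, were within the size rule, as was Ighm, at 2220 against 1828 CPM. Rag2 was at 79.2 against 69.3 CPM, under the minimum. Btg2 was lower, at 184 against 501 CPM, as was Sox4, a factor of early lymphoid cells, at 65.4 against 167; without the cells rich in other types' genes Sox4 was at 67.3 against 184 CPM and Btg2 at 177 against 320, less than the 2-fold of the size rule. The neutrophil list stood at 7503 CPM in cycling cells and 26043 CPM in the others, primary granule genes at 43.6 and 844, erythroid genes at 176 and 419, and Prtn3, a primary granule protease, at 11.9 against 409 CPM, from 4 and 10 cells; the part of these genes in the lower side was not tested further. Rag1 without the cells rich in other types' genes was at 80.8 against 471 CPM.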

How the data were processed

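Single-cell RNA was measured in 1 control and 1 T1D library of bone marrow. The authors deposited whole-number counts per gene and barcode, without normalization. Per the submitters' processing notes, bcl2fastq 2.19, featureCounts and build mm9 were used. How reads were aligned, annotated, collapsed to molecules and called as cells is not given in the sources used here. A table of RefSeq promoters on GRCm38.p6 was used for sequence only. The members and gene lists were chosen with earlier results of these data known.

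Kept barcodes had 200 or more genes and no more than 20% of counts from mitochondrial genes, which left 12803 of 12880 in control and 15579 of 15771 in T1D. The control library held 57494166 counts and the T1D library 52022458. Counts of the deposited tables were summed over sets of cells and scaled to CPM with Python 3.11.15, numpy 2.4.6, scipy 1.17.1 and pandas 2.3.3. Figures used matplotlib 3.10.9. Shares carry Clopper-Pearson intervals, levels Poisson intervals and ratios exact conditional binomial intervals. The size rule was checked on simulated sums without differences between cells. This check cannot show calls that rest on 1 cell, such as Prss34. A minimum of 100 CPM was used within the 204 cells, where the sums are smaller. This minimum, the comparison by Dntt, the rescaled list counts and the thinned cycle shares were chosen after seeing the data. Scaling factors of edgeR 4.0.16 and DESeq2 1.42.0 under R 4.3.3 were used as alternatives, with no test. Nuclear ribosomal RNA features took a median of 31.7% of a member's counts, 34.8% in the other Rag1-positive cells and 33.3% in the Ms4a1-positive cells.

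Named genes are those of the rule, of the surrogate light chain and recombination lists, the 6 with most counts in the 204 cells and the 3 with the largest ratios from every other list, and the 10 with the largest ratios in each direction, leaving out receptor segments, predicted genes and hemoglobins. Others are named as picked after their values were seen.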

Additional observations from a re-analysis of the deposited data

How the results depend on the processing

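No paired analysis was possible because each group has 1 library and no result comes from a test. Of 86 recomputed main values, 50 stayed within their limits and 36 moved, and neither the S phase nor the G2 and M ratio reversed. The limits were the main interval for shares and ratios and a fixed fold for numbers of genes. The T1D share was 0 under every setting. Stricter rules or filters and thinning could only give 0 again there. The control share, 1.59%, was 0.859% when all 3 markers were needed, 0.765% after thinning to 1000 counts and 1.24% without barcodes rich in another type's genes. Against the other Rag1-positive cells, the 420 higher genes were 242 under TMM, 212 under DESeq2 scaling, 923 with no minimum and 214 at 100 CPM, and the 251 lower genes were 384 under DESeq2, 405 without ribosomal RNA, 619 with no minimum and 152 at 100 CPM. Against the Ms4a1-positive cells, the 528 higher genes were 301, 294, 1065 and 302 under the same 4 settings, and the 383 lower genes were 879 with no minimum and 236 at 100 CPM. By Dntt, the 70 higher genes were 115 under TMM, 170 without ribosomal RNA, 477 with no minimum and 193 at 50 CPM, and the 92 lower genes were 58 under TMM, 493 with no minimum and 223 at 50 CPM. The S phase ratio, 2.97, was 2.63 under TMM, 2.54 under DESeq2, 2.82 without ribosomal RNA, 3.30 as a mean of cells' own CPM, 2.84 without the deepest cells, 2.51 with all 3 markers and 2.80 without the other-type barcodes. The G2 and M ratio, 1.47, was 1.30, 1.25, 1.39, 1.53 under the first 4 of these and 1.34 without the other-type barcodes. Fewer genes tested or another denominator enter by construction, and for the rest the cause was not tested. For 30 genes compared within the 204 cells by Dntt and by cycle, 150 values were recomputed, none of them under TMM or DESeq2 scaling: 125 kept their direction and their side of the size rule, 12 changed sign, 12 passed it anew and Irf4 by Dntt lost it without the other-type barcodes (-0.84). Leaving those barcodes out was not among these for the comparison by cycle, where Btg2 then lost its call (177 against 320 CPM). Under TMM and DESeq2 scaling further list genes lost their call, among them Rag2 and Ldha against the other Rag1-positive cells. With 1 library per group, depth per cell and the counts per set limit every level given, and a gene under 50 CPM in both sets was not compared.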
